A study of Mus musculus with 24 samples.

Results

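Dbp, Tef, Hlf and Nfil3 encode the transcription factors that compete for the D-box, a short promoter element of the circadian clock. They were taken by symbol from the deposited table of gene expression and are 4 of its 33079 genes. The cells were differentiated mouse embryonic stem cells that carry a Per2::Luciferase knock-in, which reports the clock gene Per2 by light. The control cells (WT) carry the knock-in alone, and the Rev-erba/Rev-erbb deficient cells (KO) lack in addition 1 exon of each of the genes for REV-ERBα and REV-ERBβ. Both were differentiated for 28 days through embryoid bodies, given 100 nM dexamethasone, a glucocorticoid that sets the clocks of cultured cells to a common time, and collected every 4 h from 12 to 56 h later. Each hour has 1 library per genotype, prepared after pooling RNA of 3 embryoid bodies, so there are 12 WT and 12 KO libraries and no replicate within an hour. The KO line was picked as a colony after deletion in REV-ERBβ and then in REV-ERBα, so an effect of genotype and a difference between cell lines cannot be told apart.

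DBP, TEF and HLF are the PAR bZIP factors, activators that bind D-boxes as dimers and are best known for driving daily programmes of detoxification in liver and of neurotransmitter metabolism in brain. Their genes are themselves switched on by CLOCK and BMAL1 through E-boxes. NFIL3, also called E4BP4, binds the same D-boxes and represses them, and its gene is a known target of repression by REV-ERB through the REV-ERB/ROR response element (RRE).

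The promoter sequences show which of these elements lie near each start site. RefSeq windows from 250 bases before to 50 bases after a start (GRCm38.p6) were available for all 4 genes, with 2 starts for Tef. The letters searched on both strands were CACGTG (E-box), CACGTT (E′-box), TTANGTAA (D-box), TAGGTCA (RRE core), TGACGTCA (cAMP response element, CRE) and CCAAT, which do not overlap in the hits shown. In the 30-base stretches below, written 5′ to 3′ on the strand of the gene, capitals mark the match. They are shown because each holds an element of the clock or of cAMP signalling.
Tef, first start, E-box at chr15:81802534-81802563, plus strand: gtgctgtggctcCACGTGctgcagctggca
Tef, second start, E-box at chr15:81811264-81811293, plus strand: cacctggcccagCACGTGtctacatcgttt
Hlf, CRE at chr11:90390908-90390937, minus strand: ggtgcgggcccTGACGTCActcttgtcagg
Nfil3, RRE core read on the opposite strand, chr13:52981033-52981062, minus strand: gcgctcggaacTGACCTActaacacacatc

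The canonical E-box stood 127 bases before the first Tef start and 138 bases before the second. CACGTG was present in 7.15% of all 32851 promoter windows of this length. The RRE core began 12 bases before the Nfil3 start, and its letters were present in 2.61% of windows. The CRE of Hlf, present in 1.79% of windows, began 9 bases before the start. The Dbp window held none of the E-box, E′-box, D-box, RRE or CRE letters and matched CCAAT only, a pentamer found in 37.4% of windows. D-box letters, found in 2.32% of windows, and E′-box letters, found in 4.68%, were in none of the 5 windows. These matches describe letters and not bound sites.

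Expression was given as RPKM, fragments on the exons of a gene scaled to the length of those exons and to the library total, so levels can be compared between genes. The median library total was 17376449 fragments in WT and 18153577 in KO, and 6183500.5 to 10287969 fragments per library lay on exons. Levels were compared with limma on log2(RPKM + 0.1) over the 15112 genes with a mean above 0.5 RPM (the same value without the scaling to length) in either genotype, with Benjamini-Hochberg adjustment over all of them and a threshold of 0.05. All 4 genes passed this filter. SDs are over the 12 hours of a genotype, so daily change and noise between libraries both enter them. The lost exons cannot be seen in gene-level values, so the labels alone give the genotype. Markers of pluripotent cells had a low median summed level over 5 genes, 0.481 RPKM in WT and 0.705 RPKM in KO. The sum varied between libraries, from 0.193 to 5.54 RPKM in WT and from 0.132 to 3.31 RPKM in KO. Of these markers, Pou5f1 reached 4.73 RPKM and averaged 0.924 ± 1.54 RPKM in WT and 0.828 ± 0.930 RPKM in KO. Of the marker lists, 4 of 5 smooth muscle genes and 2 of 5 endothelial genes were higher in KO and none was lower, where 11.2% of all genes were called higher and 14.7% lower. Among 5 neuronal genes tested, 2 were lower in KO and none was higher. Smooth muscle markers summed to 238 to 328 RPKM (WT) and 252 to 368 RPKM (KO), endothelial markers to 5.40 to 18.9 and 9.74 to 17.6 RPKM, and neuronal markers to 3.62 to 32.9 and 2.19 to 11.3 RPKM. One of 5 leukocyte genes and no gene of the liver and yolk sac list passed the test, and the part of these cell types in the results below was not tested.

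The repressor was the most abundant of the 4 transcripts and Hlf the least. In both genotypes the order of the levels was Nfil3, Tef, Dbp and Hlf. Neighbours in this order were compared hour by hour, with exact two-sided sign-flip tests of the log2 ratios adjusted over the 6 tests. In WT each gene was above the next at all 12 hours (adjusted p = 5.86e-04 for each pair, exact sign-flip test). Ratios of 1 sign at all 12 hours always give the smallest p of this test. The order was read from the same values, so these p-values are not independent evidence for it. Nfil3 was on average 2.29-fold above Tef, Tef 2.21-fold above Dbp, and Dbp 2.30-fold above Hlf. Dbp shares exonic bases with Sphk2, as described below, and the part of Sphk2 in the steps to and from Dbp was not tested. In KO the step from Tef to Dbp was 1.38-fold and held at 10 of 12 hours (adjusted p = 0.00342, exact sign-flip test). The ratio of Dbp to Tef in RPKM averaged 0.461 in WT and 0.749 in KO, and it reached 1.03 in KO at 52 and 56 h.

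**Figure D1:**
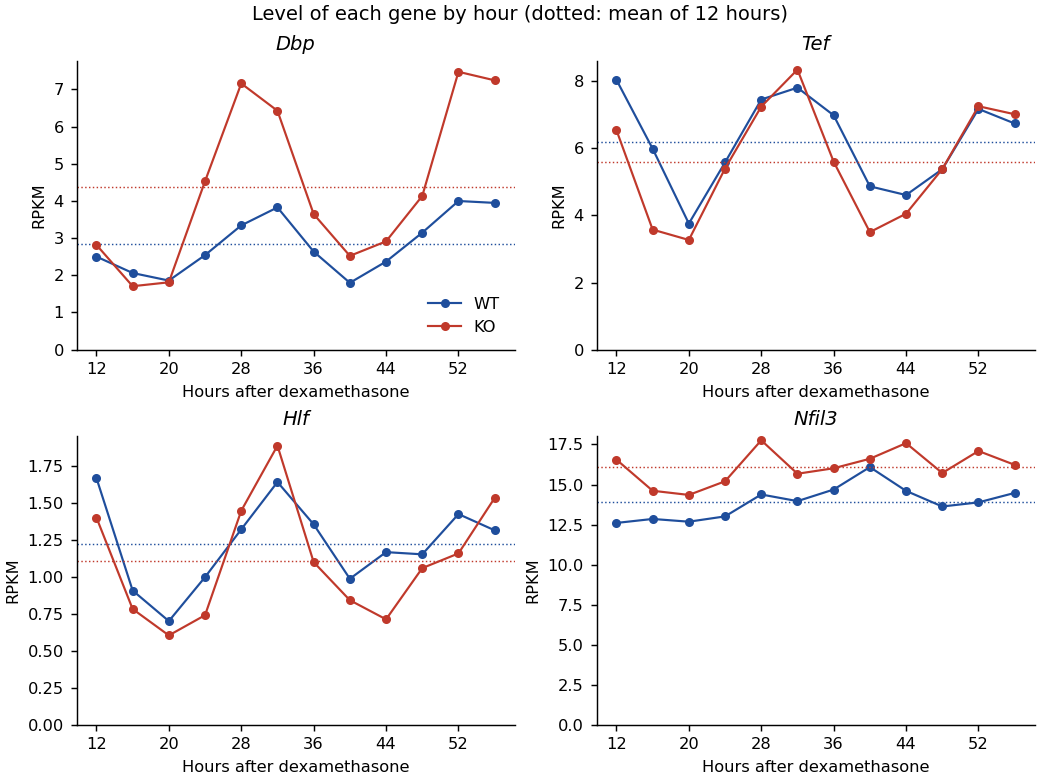
Level of each gene in RPKM (y axis, from 0) against hours after dexamethasone (x axis), with 1 library per point, WT in blue, KO in red and the mean of 12 hours dotted. Dbp in KO reached 7.16 RPKM at 28 h and 7.47 RPKM at 52 h where WT reached 3.83 RPKM at 32 h and 4.00 RPKM at 52 h, while Nfil3 in KO lay above WT at each hour with little change over time.

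Dbp, the activator with the widest daily swing in liver, had its higher values in KO around the daily peak. Dbp (uc009gws.2, chr7:45705247-45710203, plus strand, 1674 exonic bases) had a lowest level of 1.80 RPKM at 40 h, a median of 2.59 RPKM and a highest of 4.00 RPKM at 52 h in WT. In KO it had a lowest level of 1.71 RPKM at 16 h, a median of 3.89 RPKM and a highest of 7.47 RPKM at 52 h. The groups overlapped, although 6 KO libraries lay above all WT libraries.

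The excess of Dbp in KO was not even over the hours. The KO to WT ratio was 1.13 at 12 h, 0.828 at 16 h and 0.975 at 20 h. At 24 h it was 1.78 and at 28 h 2.14. After 1.23 at 44 h, it was 1.87 at 52 h and 1.84 at 56 h. The 2 hours at which KO was below WT were thus among the first 3 sampled. On each day the highest Dbp value was 1.87-fold higher in KO than in WT, whereas the lowest value was 0.918 times that of WT on the first day (12 to 32 h) and 1.40 times on the second (36 to 56 h).

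The mean level of Dbp was 2.84 ± 0.798 RPKM in WT cells. In KO cells it was 4.37 ± 2.18 RPKM (SD, n = 12 each). The difference did not pass the test over all genes (log2 difference 0.49, SE 0.23, limma adjusted p = 0.129), in which 25.9% of genes were called. With the hour as a block, the same difference of 0.49 was past the threshold (limma adjusted p = 0.00563). It was also past it with rhythm and trend as covariates (limma adjusted p = 4.54e-04). Whether Dbp counts as changed in level thus depends on whether its own change over time is taken out of the error. Dbp is counted on few fragments, on average 83.1 per library in WT and 131 in KO, which alone gives a counting error of 10.97% and 8.75% of the level.

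The end of Dbp lies across the end of Sphk2, which encodes a sphingosine kinase and is read from the opposite strand. The bodies of the genes share chr7:45709463-45710203, and in the GENCODE M21 annotation they share 539 exonic bases, which is 32.1% of the exonic length of Dbp there. The library kit does not keep strand, so fragments in this stretch can come from either gene. Sphk2 averaged 7.03 RPKM in WT, 7.42 RPKM in KO, and stayed between 6.70 and 8.12 RPKM in all 24 libraries. It passed neither the test of level (log2 difference 0.08, limma adjusted p = 0.0876) nor that of rhythm (limma adjusted p = 0.830 in WT and 0.659 in KO). The part of Sphk2 in the Dbp values was not tested.

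The other two activators had slightly lower mean levels in KO, which did not pass the test. Tef (uc007wxj.2, chr15:81802673-81826863, plus strand, 4147 exonic bases), an activator of the same family, had a lowest level of 3.76 RPKM at 20 h, a median of 6.36 RPKM and a highest of 8.04 RPKM at 12 h in WT. In KO it ran from 3.27 RPKM at 20 h through a median of 5.50 RPKM to 8.34 RPKM at 32 h. The groups overlapped throughout, and KO was lower at 8 of 12 hours, where 3.65% of all genes were lower at all 12. Being lower at all 12 hours is a stricter count, so that share does not show how rare 8 of 12 is. No share over all genes was computed for 8 of 12 hours, so this count alone says little.

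The KO to WT ratio of Tef was lowest at 0.597 at 16 h and 0.720 at 40 h. It was 0.814 at 12 h, where WT had its highest value, 0.972 at 28 h, 1.07 at 32 h and 1.01 at 52 h. The mean was 6.20 ± 1.37 RPKM in WT cells against 5.60 ± 1.71 RPKM in KO cells (SD, n = 12 each), a difference that did not pass the test (log2 difference -0.17, SE 0.16, 95% interval -0.50 to 0.15, limma adjusted p = 0.441). A sign-flip test of the within-hour differences, which takes out the change over time, gave p = 0.0234 before any adjustment (exact, two-sided, n = 12 hours).

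Hlf (uc007kws.1, chr11:90336535-90390917, minus strand, 5661 exonic bases), the third activator and the rarest of the transcripts, ran from 0.701 RPKM at 20 h through a median of 1.24 RPKM to 1.67 RPKM at 12 h in WT. In KO it ran from 0.604 RPKM at 20 h through a median of 1.08 RPKM to 1.89 RPKM at 32 h. The groups overlapped, and KO was lower at 9 of 12 hours and higher at 3. Again no share over all genes was computed, so this count alone says little. The mean was 1.22 ± 0.292 RPKM in WT cells against 1.11 ± 0.395 RPKM in KO cells (SD, n = 12 each), and the difference did not pass the test (log2 difference -0.17, SE 0.16, limma adjusted p = 0.471). Its exact two-sided sign-flip p within hours was 0.0405 before adjustment.

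Nfil3, the repressor, rose in KO. Nfil3 (uc007qni.1, chr13:52967209-52981039, minus strand, 1990 exonic bases) ran from 12.6 RPKM at 12 h through a median of 13.9 RPKM to 16.1 RPKM at 40 h in WT. In KO it ran from 14.3 RPKM at 20 h through a median of 16.1 RPKM to 17.8 RPKM at 28 h. KO was higher at each of the 12 hours, which held for 2.65% of all genes tested, and 7 WT libraries lay below every KO library.

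Even so the Nfil3 groups overlapped, since the other 5 WT libraries, at 28, 36, 40, 44 and 56 h, lay above the lowest KO library. Groups that do not overlap were found for 0.609% of genes. The KO to WT ratio of Nfil3 was between 1.03 at 40 h and 1.31 at 12 h, a narrow band beside that of Dbp. The log2 difference was 0.21 (SE 0.042, limma adjusted p = 7.32e-04), with 11.2% of genes called higher and 14.7% called lower in KO. Nfil3 was the only one of the 4 genes called in level.

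**Figure D2:**
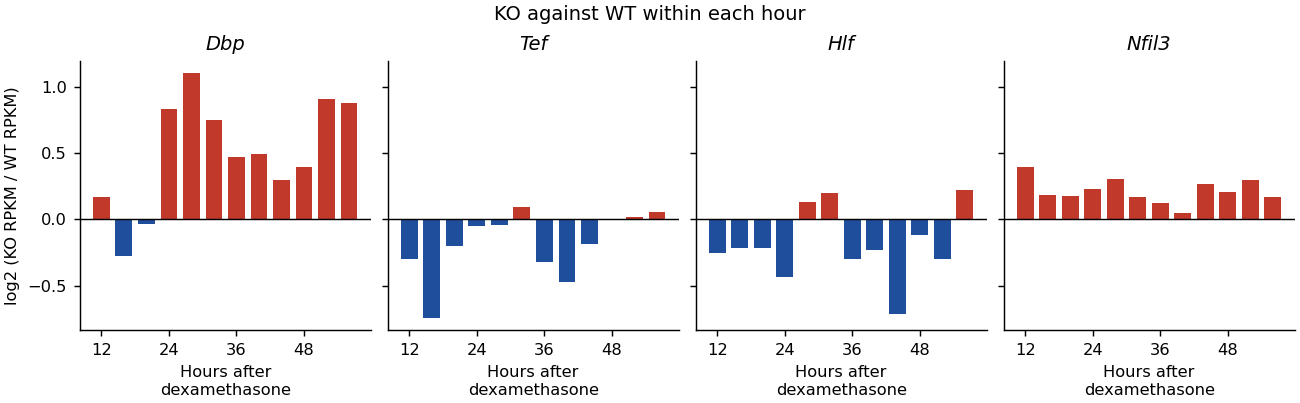
The log2 ratio of KO to WT RPKM (y axis) at each hour after dexamethasone (x axis), 1 bar per hour and 1 library of each genotype behind each bar. Bars of Nfil3 are above 0 at all 12 hours and those of Dbp at 10, while Tef is below 0 at 8 hours and Hlf at 9. For the counts of Dbp, Tef and Hlf no share over all genes was computed.

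Dbp and Tef passed the test of rhythm in both genotypes, Hlf passed it in KO, and the repressor passed it in neither. Rhythm was tested with cosine and sine terms at 24 h and a linear trend for each genotype, in 1 limma fit of all 24 libraries. Few genes passed it, 7 in WT (0.0463%) and 11 in KO (0.0728%). At an unadjusted p under 0.05 there were 1144 genes in WT and 1197 in KO. Dbp and Tef were among the called genes in WT, and Dbp, Tef and Hlf among those in KO. Leaving out both libraries of 1 hour ended the call of Dbp in WT for 5 of the 12 hours (28, 32, 36, 40 and 52 h; limma adjusted p up to 0.110) and that of Tef in WT for 6 (these and 24 h; up to 0.105). That of Hlf in KO was lost without 28 or 32 h (limma adjusted p = 0.0775 and 0.146). JTK and Lomb-Scargle, other tests of rhythm, called neither Dbp nor Tef in WT, nor Hlf in KO.

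Dbp had the smallest p of all 15112 genes in KO and the third smallest in WT. Its amplitude, from the mean to the peak of the fitted cosine on the log2 scale, was 0.46 (SE 0.062, limma adjusted p = 0.0144) in WT and 0.88 (SE 0.062, limma adjusted p = 2.59e-06) in KO. From trough to peak this was a 1.90-fold change in WT and a 3.40-fold change in KO. Both days held such a cycle, as the highest over the lowest value of Dbp was 2.06 on the first day and 2.22 on the second in WT, and 4.20 and 2.96 in KO.

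Tef ranked 4th in WT and 2nd in KO by p. Its amplitude was 0.43 (SE 0.060, limma adjusted p = 0.0192) in WT and 0.62 (SE 0.062, limma adjusted p = 3.68e-04) in KO, or 1.82-fold and 2.35-fold from trough to peak. Hlf had an amplitude of 0.37 (SE 0.084) in WT, where it ranked 46th and did not pass (limma adjusted p = 0.448). In KO its amplitude was 0.60 (SE 0.084, limma adjusted p = 0.00891), 2.29-fold from trough to peak.

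Nfil3 had a flat course. Its amplitude was 0.06 (SE 0.041, limma adjusted p = 0.806) in WT and 0.03 (SE 0.040, limma adjusted p = 0.959) in KO, so trough and peak differed by 1.08-fold and 1.05-fold. Its coefficient of variation over the hours was 7.39% in WT and 6.71% in KO, against a counting error of 4.53% and 4.22%. For Dbp the coefficient of variation was 28.1% in WT and 49.9% in KO.

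**Figure D3:**
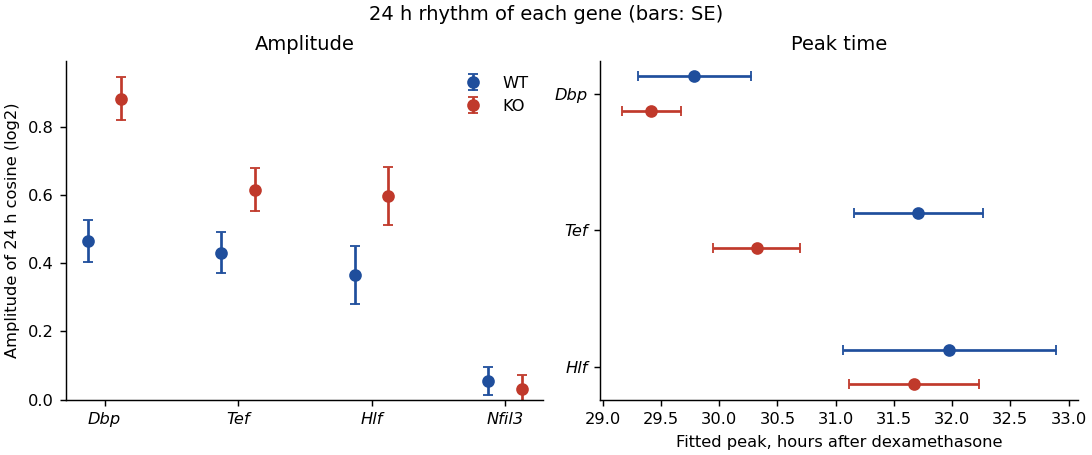
Left, amplitude of the fitted 24 h cosine (log2, y axis) for each gene in WT and KO, and right, the fitted peak in hours after dexamethasone (x axis) for the 3 activators, with SE as bars. KO amplitudes are above WT amplitudes for Dbp, Tef and Hlf, and the peaks fall in the order Dbp, Tef, Hlf in both genotypes.

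All 3 activators had a larger amplitude in KO, but none was called in the test of the difference. That test, of cosine and sine terms between genotypes together, called 0 of 15112 genes after adjustment, and 729 genes (4.82%) had an unadjusted p under 0.05. For Dbp the amplitude was larger in KO by 0.42 (SE 0.088, 95% interval 0.23 to 0.60), with an unadjusted p of 6.49e-04 that ranked 11th and a limma adjusted p of 0.825. For Tef it was larger by 0.18 (SE 0.087, 95% interval 0.0025 to 0.366, limma adjusted p = 0.992, unadjusted p = 0.0319). For Hlf it was larger by 0.23 (SE 0.12, 95% interval -0.02 to 0.48, limma adjusted p = 0.9998, unadjusted p = 0.177).

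The same question was put to the ratios at single hours, by placing the 12 log2 ratios of a gene in random order 100000 times, a test chosen after the values had been seen. The daily change of the Dbp ratio had an amplitude of 0.47 and was largest at 28.9 h (permutation p = 0.00416). That of the Tef ratio had an amplitude of 0.29 and was largest at 27.9 h (permutation p = 5.70e-04). The Hlf ratio had an amplitude of 0.23 (permutation p = 0.0598) and the Nfil3 ratio one of 0.05 (permutation p = 0.535). These p-values are not adjusted over all genes.

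The fitted peaks of the activators fell in the order Dbp, Tef, Hlf, but only some of the delays had an interval that left out 0. In WT the fitted peaks were at 29.8 h for Dbp (SE 0.484 h), 31.7 h for Tef (SE 0.552 h) and 32.0 h for Hlf (SE 0.916 h) after dexamethasone. In KO they were at 29.4 h for Dbp (SE 0.253 h), 30.3 h for Tef (SE 0.374 h) and 31.7 h for Hlf (SE 0.557 h). Hlf followed Dbp by 2.19 h in WT (95% interval 0.0141 to 4.37 h) and by 2.25 h in KO (95% interval 0.969 to 3.54 h). Tef followed Dbp by 1.93 h in WT (95% interval 0.384 to 3.47 h), whereas in KO the delay of 0.904 h had an interval that included 0 (-0.0447 to 1.85 h). The delay from Tef to Hlf had an interval that included 0 in both genotypes. Hlf in WT did not pass the test of rhythm, so its peak there is uncertain. These intervals treat the errors of the genes as independent, although the genes were measured in the same libraries.

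No difference in peak time between the genotypes had an interval that left out 0. The KO peak was earlier than that of WT by 0.368 h for Dbp (95% interval of KO minus WT -1.52 to 0.778 h) and by 0.304 h for Hlf (-2.56 to 1.95 h). For Tef the KO peak was 1.39 h earlier, with an interval from -2.79 to 0.00992 h. Sampling every 4 h limits these estimates.

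The period that best described each course is given without an error, and differences in period between genes or genotypes were not tested. Hlf in WT did not pass the test of rhythm, so its best period there is uncertain. Over periods from 20 to 28 h, the best for Dbp was 22.9 h (WT) and 24.5 h (KO), with 22.4 h and 23 h for Tef, and 21.5 h and 23.2 h for Hlf. The cosine took up 93.8% and 95.1% of the variance of detrended Dbp in WT and KO, 89.6% and 95.2% for Tef and 72.7% and 88.5% for Hlf. For Nfil3 the best period lay at an edge of the range in both genotypes, 28 h in WT and 20 h in KO, with 47.7% and 23.4% of the variance, so no period was found for it.

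None of the 4 genes was called in the test of a linear trend over time, which called 359 genes in each genotype (2.38%). The steepest was Dbp in KO, with 0.28 log2 units per 24 h (SE 0.078, limma adjusted p = 0.0643) against 0.14 in WT (SE 0.078, limma adjusted p = 0.400). Nfil3 had 0.14 log2 units per 24 h in WT (SE 0.051, limma adjusted p = 0.198) and 0.06 in KO (SE 0.051, limma adjusted p = 0.604). For Tef and Hlf the adjusted p was 0.481 or more in both genotypes (limma).

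Since activators and repressor share the D-box, their transcripts were also set against each other, as a description with no test. The summed level of Dbp, Tef and Hlf averaged 10.3 ± 2.25 RPKM in WT cells against 11.1 ± 4.09 RPKM in KO cells (SD, n = 12 each). It was lowest at 20 h in both, at 6.32 RPKM (WT) and 5.68 RPKM (KO). It was highest at 32 h in both, at 13.3 RPKM (WT) and 16.7 RPKM (KO), so the KO sum had both the lower trough and the higher peak.

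The make-up of this sum also differed. Dbp gave 27.6% of it in WT, from 20.5% at 12 h to 32.9% at 56 h, and 37.9% in KO, from 26.2% at 12 h to 47.1% at 52 h. Tef gave 60.5% in WT and 51.9% in KO, and Hlf 11.9% and 10.3%. In KO at 52 and 56 h Dbp was the largest of the 3, which it was at no hour in WT. Its lead over Tef there was small, at a ratio of 1.03 in 1 library per hour, and the part of Sphk2 in it was not tested.

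The ratio of the summed activators to Nfil3 averaged 0.740 ± 0.168 in WT and 0.682 ± 0.238 in KO (SD, n = 12 each). It ran from 0.476 at 40 h to 0.969 at 12 h in WT, a 2.04-fold range. In KO it ran from 0.396 at 20 h to 1.06 at 32 h, a 2.68-fold range. Activator transcripts outnumbered the repressor per length only in the KO library at 32 h, while Nfil3 itself varied by 1.28-fold in WT and 1.24-fold in KO.

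**Figure D4:**
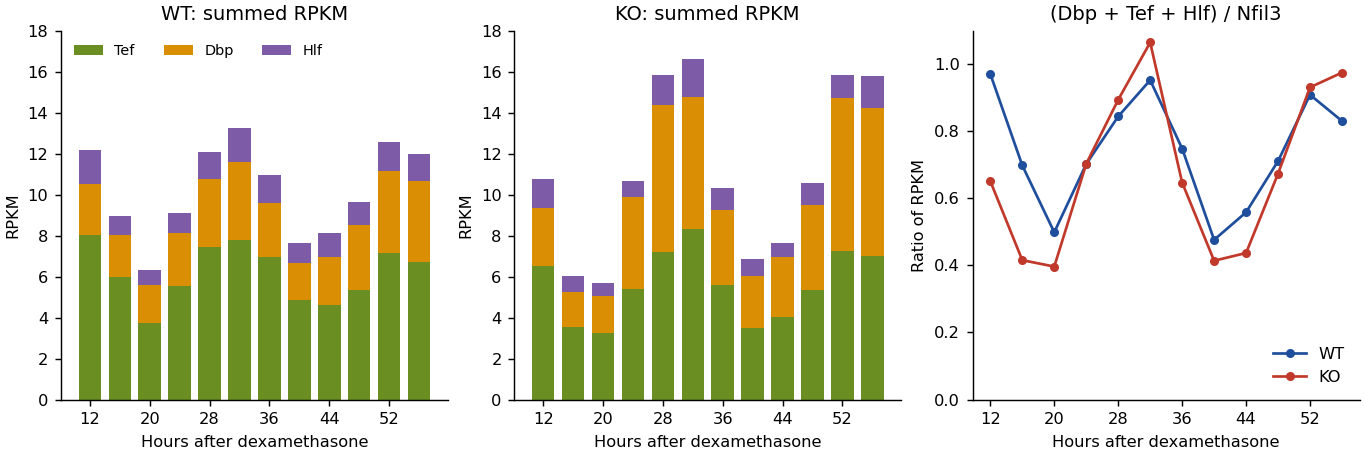
Left and middle, stacked RPKM of Tef, Dbp and Hlf (y axis) by hour after dexamethasone (x axis) in WT and KO, and right, the ratio of that sum to Nfil3. The KO sum ran from 5.68 RPKM at 20 h to 16.7 RPKM at 32 h against 6.32 to 13.3 RPKM in WT at the same hours.

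Upstream of the activators, the E-box regulators (12 genes, all tested) included 5 that rose in KO and none that fell (11.2% and 14.7% of all genes were called in these directions), with a median log2 difference of 0.20 against -0.01 over all genes. Those that rose were Arntl (Bmal1) and Npas2, partners in the E-box activating dimer, Arntl2, a close relative of Arntl, and Bhlhe40 and Ciart, which repress E-box transcription. Arntl averaged 3.55 ± 0.554 RPKM (WT) and 4.72 ± 0.387 RPKM (KO), and Npas2 2.80 ± 0.459 and 4.32 ± 0.359 RPKM (SD, n = 12 each). Clock did not pass (log2 difference -0.09, limma adjusted p = 0.168). Rhythm was called for 3 of the 12 in each genotype, namely Per2, Per3 and Cry1, all of them repressors of CLOCK and BMAL1. Over all genes it was called for 0.0463% in WT and 0.0728% in KO.

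Nfil3 was set beside the other genes known to be under RRE control (9 genes, all tested). In KO 5 rose, Nfil3 among them, and 1 fell (11.2% and 14.7% over all genes), with a median log2 difference of 0.21. The study had named several of these from the same samples, so their direction is not independent evidence. The rise of Nfil3 (log2 difference 0.21) was about that of Cdkn1a, a cell cycle inhibitor (0.21), and smaller than that of Npas2 (0.62), Arntl (0.41) and Bhlhe40 (0.30).

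Downstream, the clock genes with known D-boxes (8 listed, 7 tested) were mostly rhythmic, and few were called in level. Nr1d2, the gene of REV-ERBβ, was the only one that rose, with 1.85 ± 0.746 RPKM (WT) and 3.22 ± 1.34 RPKM (KO, log2 difference 0.76, SE 0.24, limma adjusted p = 0.0220), and none fell. Over all genes 11.2% were called higher in KO and 14.7% lower. Rhythm was called for Per2, Per3, Cry1 and Nr1d2 in WT and for these and Nr1d1, the gene of REV-ERBα, in KO. Rhythm was called for 0.0463% of all genes in WT and 0.0728% in KO. Nr1d1 and Nr1d2 are also the genes that lack 1 exon in KO, while RPKM is scaled to the same exonic length in both genotypes. The median amplitude of the list was 0.46 in WT and 0.71 in KO, against 0.08 and 0.07 over all genes, and 4 of the 7 had a larger amplitude in KO. None was called when rhythms were compared between genotypes with limma, where 2 had an unadjusted p under 0.05. Rorb, at a mean of 0.018 RPKM in WT, was too low to test.

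Among these, Nr1d1 came closest to Dbp in how the amplitude moved, from 0.39 (SE 0.088) in WT to 0.73 (SE 0.091) in KO. Its unadjusted p for the difference in rhythm was 0.0133 (limma adjusted p = 0.908). Per3, a period gene, went from 0.53 (SE 0.080) to 0.72 (SE 0.080). Per2 had 0.71 and 0.75, Nr1d2 0.69 and 0.71, and Cry1, a cryptochrome gene, 0.46 and 0.45, each difference in amplitude within 1 SE. Nr1d2 was the other gene with an unadjusted p under 0.05 for the difference in rhythm (limma p = 0.0189, adjusted p = 0.980). Its fitted peak was at 26.7 h (SE 0.396 h) in WT and 28.4 h (SE 0.384 h) in KO. Per1 had an amplitude of 0.11 in WT and 0.09 in KO, and Rora of 0.10 and 0.06, with no call in either.

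**Figure D5:**
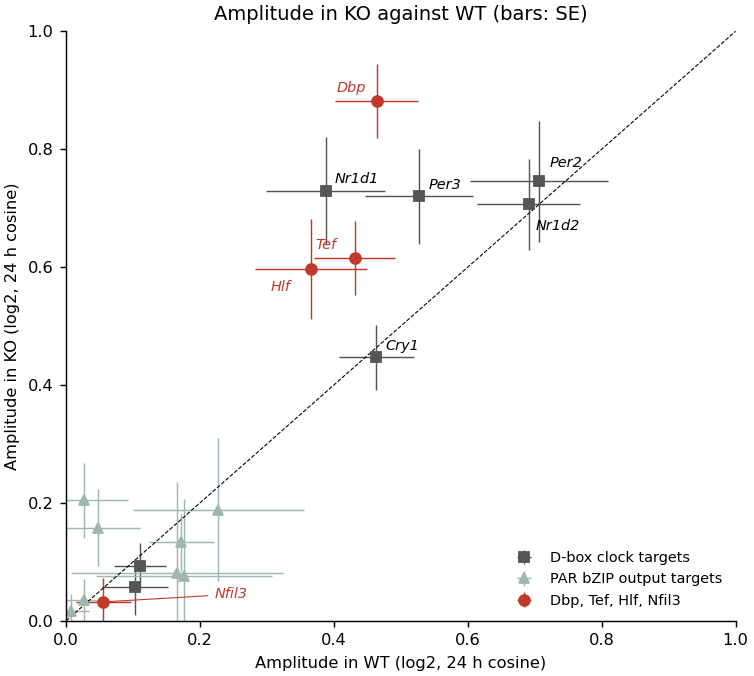
Amplitude of the 24 h cosine in KO (y axis, log2) against that in WT (x axis, log2), with SE as bars and equality as a dashed line, for the 4 genes in red, D-box clock targets as grey squares and PAR bZIP output targets as green triangles. Dbp lies farthest above the line with 0.46 in WT and 0.88 in KO, and the output targets lie at or below 0.23 on both axes.

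No rhythm was called among the known output genes of the PAR bZIP factors, beside 0.0463% of all genes in WT and 0.0728% in KO. With shares this small, the absence of a call in a short list says little. Of 12 listed genes 8 were tested, and 1 in WT and 2 in KO had an unadjusted p under 0.05 in the limma test of rhythm. Over all 15112 genes, 1144 in WT and 1197 in KO had such a p. The median amplitude of the 8 genes was 0.11 in both genotypes. The largest amplitude in WT was that of Slc15a1, an intestinal peptide transporter, at 0.23 (SE 0.13). Por, the reductase that supplies cytochrome P450 enzymes with electrons, had 0.01 in WT and 0.02 in KO (SE 0.027 and 0.029) at a level of 43.6 and 45.7 RPKM, a level at which the error was small. Alas1, the first enzyme of haem synthesis, had 0.03 and 0.04, and Pdxk, the kinase that makes the active form of vitamin B6, had 0.17 and 0.13 (SE 0.049 each).

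In level, 2 of the 8 output genes rose in KO and 1 fell, beside 25.9% called over all genes. Ddc, the decarboxylase of dopamine and serotonin synthesis, rose from 6.52 ± 0.659 to 7.95 ± 1.16 RPKM (limma adjusted p = 0.00699). Slc15a1 rose from 0.426 ± 0.143 to 0.711 ± 0.169 RPKM (limma adjusted p = 0.00174). Cyp2b10, a drug-metabolising cytochrome P450, fell from 0.337 ± 0.129 to 0.194 ± 0.0957 RPKM (limma adjusted p = 0.0285; SD, n = 12 each). The 4 that could not be tested, Nr1i3, Cyp2a5, Cyp7a1 and Tshb, had means of 0.214 RPKM or less in WT, and the liver genes among them were thus at or near the lower end of what the libraries can measure.

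Other bZIP factors related in sequence to Nfil3 and the PAR group, the C/EBP and ATF genes, had no gene called in rhythm. Over all genes 0.0463% were called in WT and 0.0728% in KO, so the absence of a call here says little. Of 8 listed genes 7 were tested and 1 in each genotype had an unadjusted p under 0.05 (limma), as had 1144 (WT) and 1197 (KO) of all 15112. The median amplitude of the list was 0.04 in WT and 0.07 in KO. Cebpa, a factor of liver and fat differentiation, rose by 0.14 on the log2 scale (SE 0.044, limma adjusted p = 0.0169), and the other 6 did not pass in level. Of all genes 11.2% were called higher. Several were more abundant than the 4 genes described here, with Cebpb at 48.1 and Cebpd at 47.3 RPKM in WT.

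The genes most like each of the 4 in course were found by Pearson's r over the 24 libraries, after centring within genotype, among 11663 genes with a mean of at least 1 RPKM in both. This is a description, since the libraries share their hours and any genes with a daily course will be alike. The activators were like each other, with r of 0.89 between Tef and Hlf, 0.82 between Dbp and Tef and 0.72 between Dbp and Hlf. Nfil3 was not, with r of 0.34 to Dbp, 0.23 to Tef and 0.29 to Hlf.

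Outside the 4 genes, Dbp was most like Nr1d2 (0.84), followed by Arhgap44 (0.79), Nr1d1 (0.77), Col14a1 (0.76) and B4galt6 (0.76), and its 3 lowest were Cdkn1c (-0.78), Lrrc59 (-0.75) and Ehd1 (-0.75). Outside the 4 genes, Tef was most like Per2 (0.86), followed by Atp10d (0.82), Cry2 (0.77) and Klhl29 (0.77), and Hlf most like Per2 (0.89), followed by Atp10d (0.80), Crebrf (0.78) and Rere (0.78). The lowest for Tef were 2410016O06Rik (-0.73), Muc16 (-0.73) and Tomm5 (-0.71), and for Hlf Lrrc59 (-0.73), Nob1 (-0.72) and Tpm1 (-0.72). The fitted peaks were at 25.3 h (WT) and 27.2 h (KO) for Nr1d1, 26.7 h and 28.4 h for Nr1d2, and 32.3 h and 32.4 h for Per2.

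Nfil3 was most like genes outside the clock. Its 5 highest were Gm11747 (0.78), Serpina3c (0.76), Nnmt (0.75), C1qtnf1 (0.74) and Pla2g15 (0.74), and its 3 lowest Cep295 (-0.77), Sltm (-0.76) and Nxf1 (-0.73). Levels here are of RNA from whole cultures, in which fewer cells of a type and less RNA per cell cannot be told apart.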

How the data were processed

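Poly(A)-selected RNA was sequenced as 101-bp paired-end reads in 24 libraries. According to the submitters' processing notes and the study's methods, the authors used bcl2fastq, Trimmomatic 0.36, STAR 2.5.4b on GRCm38/mm10, SAMtools with a minimum mapping quality of 10, and HOMER, and deposited RPKM per gene on exons with the exonic length of each gene in bases; other versions and the strand setting of the counting are not given in the sources used here. Undoing both scalings of RPKM returned steps of 0.5 fragment (within 0.01) for 100% of values, used to describe depth. Because RPKM is normalized, no count test was run. Unused columns of samples numbered 0.

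Tests used limma 3.58.1 under R 4.3.3, applied to log2(RPKM + 0.1), which understates the change of low genes, with Benjamini-Hochberg adjustment over all genes. Level was tested by genotype alone, and rhythm, its difference and trend in 1 fit. The hours serve as replicates, so p-values measure the spread between these libraries. Permutation and sign-flip tests, promoter searches and figures used Python 3.11.15, numpy 2.4.6, pandas 2.3.3, scipy 1.17.1 and matplotlib 3.10.9. The limma and rhythm tests were tested on simulated data. The 4 genes and the gene lists were chosen with earlier results of these data known. Named are the 4 genes, listed genes and, for each of the 4, the 5 highest and 3 lowest genes by Pearson's r; 2 genes under these rules are counted in the totals but not reported here. Alternatives changed the pseudocount (1 or 0.01), filter, scaling, hours, period, trend, block and method.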

Additional observations from a re-analysis of the deposited data

How the results depend on the processing

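Nfil3 was called higher in KO under all 26 alternatives, and neither its rhythm nor a difference in rhythm of any of the 4 genes was called after adjustment under any. For Dbp the level difference of 0.49 was past the threshold with the hour as a block or with rhythm and trend as covariates. For Tef and Hlf the log2 difference of -0.17 was past an unadjusted 0.05 in the sign-flip test (exact, two-sided). The labels give no replicate numbers, and WT and KO libraries were paired by hour in the block and the sign flips. No called result changed direction. Uncalled trends of Tef and Hlf changed sign in some settings, such as Tef in KO (-0.06, and 0.01 without the 12 h libraries). Other scalings moved the median difference of all genes, -0.01, by less than 0.1.

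The rhythm of Dbp in WT had an adjusted p of 0.432 with a period of 22 h, 0.0643 with 23 h, 0.903 by JTK and 0.200 by Lomb-Scargle. Leaving out each hour in turn gave 0.0146 to 0.110, and the call was kept in 7 of 12. It was lost without the libraries at 28, 32, 36, 40 or 52 h. For Tef in WT the values were 0.903 by JTK, 0.221 by Lomb-Scargle and 0.0204 to 0.105 on leaving out each hour, and the call was lost without 24, 28, 32, 36, 40 or 52 h. For Hlf in KO they were 1 by JTK, 0.225 by Lomb-Scargle and 0.00991 to 0.146, lost without 28 or 32 h, the hours of its peak. Dbp and Tef in KO had 1 by JTK and were called under every other alternative. The smallest p that JTK can give at 24 h from 12 points is 8.66e-05, so a small number of genes cannot pass adjustment over 15112. In the limma fits of rhythm, WT and KO share 1 estimate of the spread, so a call in WT also depends on how the KO course is fitted. The amplitude of Dbp in WT was 0.46 with a period of 22 h, 0.47 with 23 h and 0.46 with 24 h.

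Genes called in level fell to 1115 (487 higher in KO) with 12 to 32 h alone and to 1903 (897 higher) with 36 to 56 h alone. Rhythm counts in WT were 4 without a filter, 2 at 22 h, 4 at 23 h and 0 by JTK and by Lomb-Scargle. In KO they were 5 at 22 h, 0 by JTK and 2 by Lomb-Scargle. The difference in rhythm was called for 1 gene without the 12 h libraries, with no trend, or with a shared trend. The trend of Dbp in KO was 0.22 and called with a pseudocount of 1, and 0.23 to 0.33 on leaving out each hour, called without 24 or 48 h. Trend counts were 236 in WT and 205 in KO without the 12 h libraries. Settings chosen after seeing the data were the limma mean-variance trend, the shared trend, the permuted ratios and leaving out each hour. With 1 library per hour, no value at a single hour has an error from replicates, and Dbp and Hlf rest on about 100 fragments per library.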
